A study of Mus musculus with 18 samples.

Results

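The occupancy of CTCF was set against that of PPARg in the livers of control mice, by chromatin immunoprecipitation followed by sequencing (ChIP-seq). The members were the sites called in both libraries of a factor, where overlapping peaks of the 2 libraries were merged into 1 site. There were 22147 CTCF sites, from 27585 peaks in library WT164 and 24566 in WT165, and 11703 PPARg sites, from 15520 peaks in WT 2 and 16617 in WT 4. These 4 libraries belong to a series of 18 peak lists that hold 466150 peaks in all. Every library used here came from the liver of C57BL/6 mice 8 weeks old labelled CTCF fl/fl Albcre-, that is, with floxed Ctcf alleles and no Alb-Cre transgene. The floxed alleles are therefore part of every control. CTCF WT164 and WT165 and PPARg WT 2 were tagmentation libraries from males on chow after an overnight fast. PPARg WT 4 was made with a ligation kit, like the control libraries of H3K27ac (WT 1, WT 2 and WT 4), H3K4me3 (WT 2) and H3K27me3 (1 library), and the labels give no sex for these 6. Liver is also the tissue given for these 6, but the protocol for their growth speaks of neural stem cells. Each library was a mixture of the cells of the liver, so the share of cells bound and the strength of binding in each cell cannot be told apart.

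CTCF is a zinc finger protein that binds a long, conserved DNA motif and halts the cohesin ring as it extrudes loops of chromatin, so that it marks loop anchors and domain boundaries in nearly every tissue. PPARg is a nuclear receptor that binds DNA together with RXR at a direct repeat of the AGGTCA half-site and is best known as the regulator of fat cell formation and lipid storage. In healthy liver its relative PPARa is the better studied member of the family, with genes of fatty acid oxidation among its targets. H3K27ac marks active enhancers and promoters, and H3K4me3 marks active promoters.

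The marked genes were checked against the tissue named on the labels. Among 8 hepatocyte marker genes, 8 had an H3K4me3 peak and 8 an H3K27ac region within 5 kb of the gene span. Of 8 neural stem cell markers, 1 had an H3K4me3 peak and 3 an H3K27ac region, and of 8 Kupffer cell markers the counts were 0 and 2. For stellate cells the counts were 4 and 7 of 8, for endothelium 5 and 8, for cholangiocytes 2 and 1, and for lymphocytes 2 and 4. Over all 21887 protein-coding genes, 57.5% had an H3K4me3 peak and 58.1% an H3K27ac region. The Ctcf gene itself carried 3 CTCF sites and no PPARg site, and Pparg carried 4 PPARg sites and no CTCF site.

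Promoters that held both a strong site and a match to the factor's motif show the DNA under the peaks. The windows are the 250 bases before a start site, from RefSeq on build GRCm38.p6, 5′ to 3′ on the strand of the gene. The capitals mark bases that match the core of the CTCF motif, searched as CC, any 3 bases, AG, any 2 bases and GGC, or the direct repeat of PPAR and RXR, searched as AGGNCA, any base and AGGNCA, each on both strands and counted separately. The first 3 are the CTCF windows of the highest ranked sites and the last 3 the PPARg windows.
Nipsnap2 (CTCF, chr5:129724825-129725074, plus strand): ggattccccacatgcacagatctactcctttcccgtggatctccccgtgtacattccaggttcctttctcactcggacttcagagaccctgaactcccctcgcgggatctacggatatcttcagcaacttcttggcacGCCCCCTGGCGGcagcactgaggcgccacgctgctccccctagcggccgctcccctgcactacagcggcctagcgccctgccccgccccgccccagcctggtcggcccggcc
Rapgef1 (CTCF, chr2:29619470-29619719, plus strand): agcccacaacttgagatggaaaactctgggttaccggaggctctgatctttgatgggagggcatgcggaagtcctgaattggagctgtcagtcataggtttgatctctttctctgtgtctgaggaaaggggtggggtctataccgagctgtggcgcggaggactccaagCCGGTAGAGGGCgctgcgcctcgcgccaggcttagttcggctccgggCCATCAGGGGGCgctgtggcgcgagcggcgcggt
Med4 (CTCF, chr14:73509799-73510048, plus strand): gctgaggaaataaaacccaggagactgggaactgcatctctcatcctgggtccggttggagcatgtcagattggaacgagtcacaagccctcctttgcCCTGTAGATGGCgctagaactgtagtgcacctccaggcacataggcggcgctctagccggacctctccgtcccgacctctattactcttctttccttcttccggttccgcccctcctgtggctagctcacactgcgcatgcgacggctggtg
Fabp1 (PPARg, chr6:71199629-71199878, plus strand): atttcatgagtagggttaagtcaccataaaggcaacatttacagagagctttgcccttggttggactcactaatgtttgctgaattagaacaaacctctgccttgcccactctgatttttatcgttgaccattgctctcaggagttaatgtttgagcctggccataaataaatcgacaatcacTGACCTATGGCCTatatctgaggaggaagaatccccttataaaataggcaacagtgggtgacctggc
Gm35078 (PPARg, chr14:47296292-47296541, plus strand): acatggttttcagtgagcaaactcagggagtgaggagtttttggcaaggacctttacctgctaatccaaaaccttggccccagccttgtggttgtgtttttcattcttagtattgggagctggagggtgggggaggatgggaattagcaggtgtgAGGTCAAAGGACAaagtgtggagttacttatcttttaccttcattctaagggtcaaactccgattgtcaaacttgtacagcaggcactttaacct
Apoc2 (PPARg, chr7:19677942-19678191, minus strand): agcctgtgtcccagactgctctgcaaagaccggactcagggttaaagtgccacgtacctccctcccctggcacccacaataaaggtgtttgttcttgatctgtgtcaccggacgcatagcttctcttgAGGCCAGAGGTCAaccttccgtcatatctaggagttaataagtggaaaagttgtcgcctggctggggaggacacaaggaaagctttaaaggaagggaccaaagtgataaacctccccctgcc

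Nipsnap2 encodes a mitochondrial protein, and its CTCF peak had a fold enrichment over background of 52.5 in WT164 and 56.4 in WT165. The match, GCCCCCTGGCGG on the opposite strand, lay 32 bp from the summit in both libraries. Rapgef1, which encodes an exchange factor for Rap GTPases, had CTCF folds of 41.2 and 43.5 and 2 matches in the window. Med4, a subunit of the Mediator complex, had CTCF folds of 27.3 and 29.96, and its site overlapped H3K4me3 but no H3K27ac region. Fabp1 encodes the fatty acid binding protein of the liver. Its PPARg peak had folds of 21.3 in WT 2 and 13.5 in WT 4, and the match TGACCTATGGCCT lay 67 to 55 bases before the start, 118.5 bp from the summit of WT 2 and 4.5 bp from that of WT 4. Apoc2 encodes an apolipoprotein that activates lipoprotein lipase, and its PPARg folds were 10.6 in both libraries.

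Across all 32817 promoter windows, each 250 bases before to 50 after a start site, the CTCF letters were found in 8.61% and the PPAR and RXR letters in 0.381%. Of 836 windows that held the summits of both CTCF libraries, 426 (51.0%, 95% Wilson interval 47.6 to 54.3%) had the CTCF letters, against 48 of 452 windows (10.6%, 8.10 to 13.8%) that held the summits of both PPARg libraries. The PPAR and RXR letters were found in 1 of those 836 CTCF windows (0.120%) and in 6 of those 452 PPARg windows (1.33%, 0.610 to 2.87%). Of the 1629 windows that overlapped a CTCF site at all, 35.2% had the CTCF letters. Of the 1380 windows that overlapped a PPARg site, 0.942% had the letters of the repeat. Both patterns were thus more frequent at their own factor than over all windows, but the repeat stayed rare. The repeat as searched fixes more bases than the CTCF core, so the shares of the 2 patterns cannot be set against each other. In the 426 windows the CTCF letters lay a median of 28 bp from the WT164 summit and 31 bp from the WT165 summit. These are letters in a window, not tested sites, and a promoter without them may hold a looser version.

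Within a factor the libraries agreed to different degrees. WT165 had a peak at 81.0% of the WT164 peaks, and WT164 had one at 92.2% of the WT165 peaks. For PPARg, WT 4 had a peak at 75.8% of the WT 2 peaks, and WT 2 at 77.0% of the WT 4 peaks. The summits of the libraries lay a median of 45 bp apart at CTCF sites and 73 bp apart at PPARg sites, and 82.3% of CTCF sites against 63.6% of PPARg sites had them within 100 bp. The median fold at shared sites was 10.6 in WT164 and 9.49 in WT165, against 8.50 in PPARg WT 2 and 7.06 in WT 4. The rank correlation of the libraries' percentiles was 0.801 over the CTCF sites and 0.744 over the PPARg sites, as a description over sites that share 2 libraries.

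CTCF and PPARg differed most in the histone marks at their sites. Of the CTCF sites, 18% (95% Wilson interval 17.5 to 18.5%) overlapped an H3K27ac region called in all 3 control libraries, against 88.6% (88.0 to 89.1%) of the PPARg sites. An H3K4me3 peak was found at 9.49% (9.11 to 9.88%) of CTCF sites and at 23.2% (22.4 to 24.0%) of PPARg sites. Neither mark was present at 81.0% (80.4 to 81.5%) of CTCF sites and at 11.2% (10.7 to 11.8%) of PPARg sites. H3K27ac without H3K4me3, the pattern of distal enhancers, was found at 9.55% of CTCF sites and at 65.6% of PPARg sites. These intervals cover counting error only and treat sites as independent.

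The same shares were then taken over all peaks of each library. The H3K27ac share was 17.2% in CTCF WT164 and 17.3% in WT165, against 86.1% in PPARg WT 2 and 86.1% in WT 4. The H3K4me3 share was 9.02% and 8.99% in the CTCF libraries, against 23.7% and 22.9% in the PPARg libraries. Neither mark was found at 81.8% and 81.7% of CTCF peaks, against 13.7% and 13.7% of PPARg peaks. The libraries of a factor lay close together and those of the 2 factors far apart, and PPARg WT 2, the library made as the CTCF libraries were, stood with PPARg WT 4. In a 2-sided exact permutation test over libraries each of these differences had p = 0.333, the smallest that 2 libraries against 2 allow. Of 24 measures compared in this way, 23 had libraries that did not overlap, and the lowest Benjamini-Hochberg adjusted p of these exact tests was 0.348. With 2 libraries against 2 this p takes its smallest value whenever the libraries of the factors do not overlap, however far apart they lie. The 24 measures are also not independent of each other. The labels do not say beyond the sample names that the libraries came from separate animals.

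**Figure D1:**
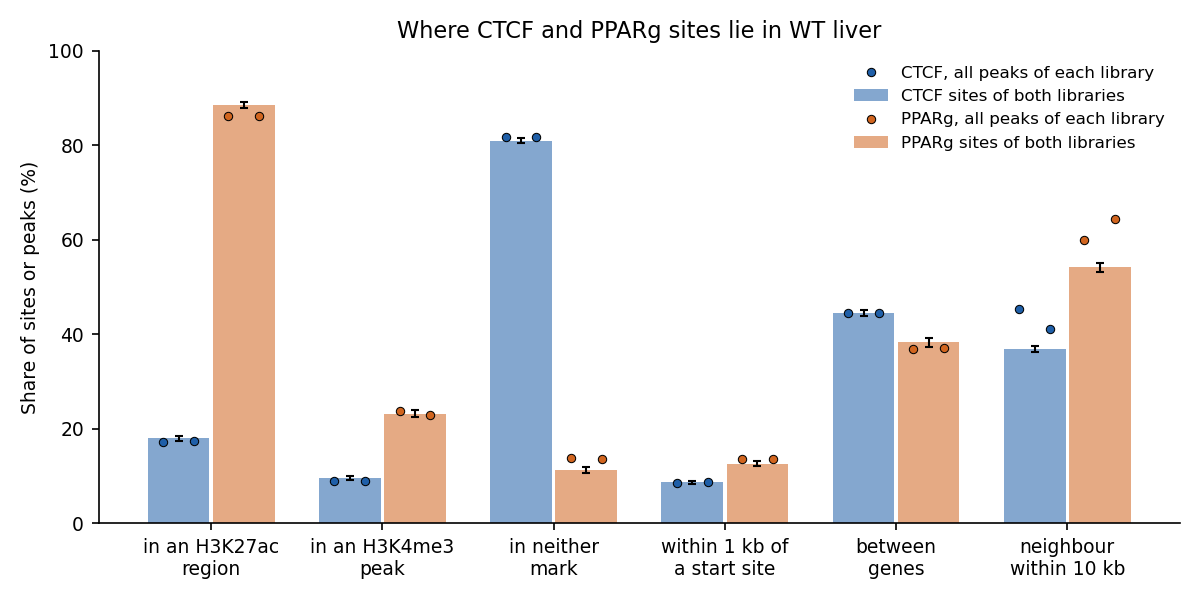
Share of sites (y axis, %) by mark, position and neighbours, for CTCF (blue) and PPARg (orange); bars are sites called in both libraries with 95% Wilson intervals, and points are all peaks of each of the 2 libraries. H3K27ac was found at 18% of CTCF sites and 88.6% of PPARg sites, and the points of a factor lie near its bar except for neighbours within 10 kb, where single libraries lie above it.

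The marks cover little of the genome. H3K27ac regions covered 96.4 Mb, or 3.58% of the length between the outermost genes of the chromosomes, and H3K4me3 peaks 21.7 Mb, or 0.806%. Both factors therefore overlapped both marks more often than these shares. H3K27me3, the Polycomb mark of silenced genes, covered 4.01 Mb or 0.149%, and overlapped 0.357% of CTCF sites and 0.239% of PPARg sites. An overlap of 1 bp was enough, so wide sites meet a mark more often than its share of covered bases. The share of sites that would overlap by position alone was not computed. The H3K27me3 shares are therefore not called high or low against it. For this mark the libraries of the factors overlapped, with 0.326% and 0.224% in the CTCF libraries against 0.219% and 0.277% in the PPARg libraries (exact permutation p = 0.667). Seen from the marks, 14.3% of the 25758 H3K27ac regions held a CTCF site and 29% a PPARg site, and 12.8% of the 16341 H3K4me3 peaks held a CTCF site and 15.9% a PPARg site.

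The H3K27ac share was also followed with peak strength, where the sites of a factor were cut into 10 classes of equal size by the mean percentile of their −log10 q. Of the weakest class of CTCF sites 16.9% overlapped H3K27ac, and of the strongest class 19.3%. Of the weakest class of PPARg sites 81.6% overlapped it, and of the strongest class 96.1%. The weakest PPARg sites thus lay in H3K27ac more often than the strongest CTCF sites. The H3K4me3 share was 8.58% in the weakest and 12.5% in the strongest class of CTCF sites, and 24.4% and 27.1% in those of PPARg. Proximity to gene ends ran in opposite directions: 10.7% of the weakest and 14.6% of the strongest CTCF sites lay within 1 kb of one, and 15.3% of the weakest and 10.6% of the strongest PPARg sites.

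**Figure D2:**
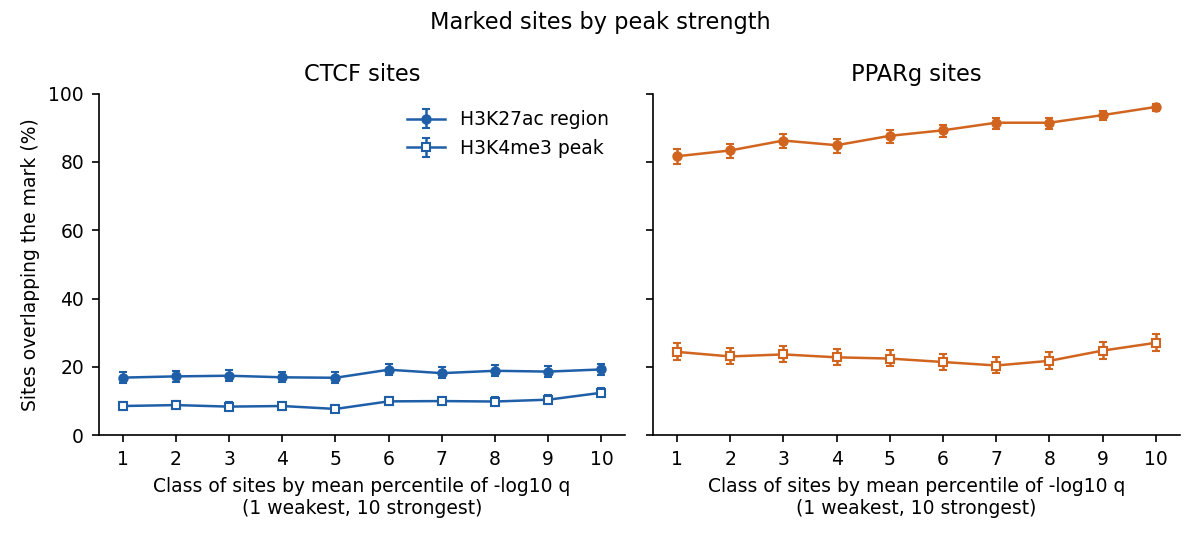
Share of sites overlapping H3K27ac (filled circles) and H3K4me3 (open squares) on the y axis (%), by class of peak strength on the x axis (10 classes, 1 weakest), for CTCF on the left and PPARg on the right, with 95% Wilson intervals. The H3K27ac line of CTCF runs from 16.9% in the weakest to 19.3% in the strongest class and that of PPARg from 81.6% to 96.1%.

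Where a site did lie in H3K27ac, its place within the region differed between the factors. The midpoint of CTCF sites lay a median of 459 bp inside the nearer edge of the region, against 1573 bp for PPARg sites. By library the medians were 539 bp in WT164 and 542 bp in WT165, against 1502 bp in PPARg WT 2 and 1561 bp in WT 4, with no overlap between the factors (exact permutation p = 0.333). As a share of the region's width this was 14.4% for CTCF and 33.2% for PPARg. The outermost 10% of the width at either of the 2 ends, or the ground just outside, held the midpoint in 42.1% of 3985 CTCF site and region pairs. For PPARg this was 5.06% of 10364 pairs. CTCF sites thus lay nearer to the borders of acetylated regions, and PPARg sites further inside.

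The regions that held PPARg were wider, with a median of 5699 bp over site and region pairs against 3481 bp for CTCF, so the comparison was repeated within 5 classes of region width. In the narrowest class the midpoint lay a median of 84 bp inside the edge for CTCF and 443.5 bp for PPARg. In the widest class it lay 1457 bp inside for CTCF and 2642.5 bp for PPARg. CTCF lay nearer to the edge than PPARg in each of the 5 classes.

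**Figure D3:**
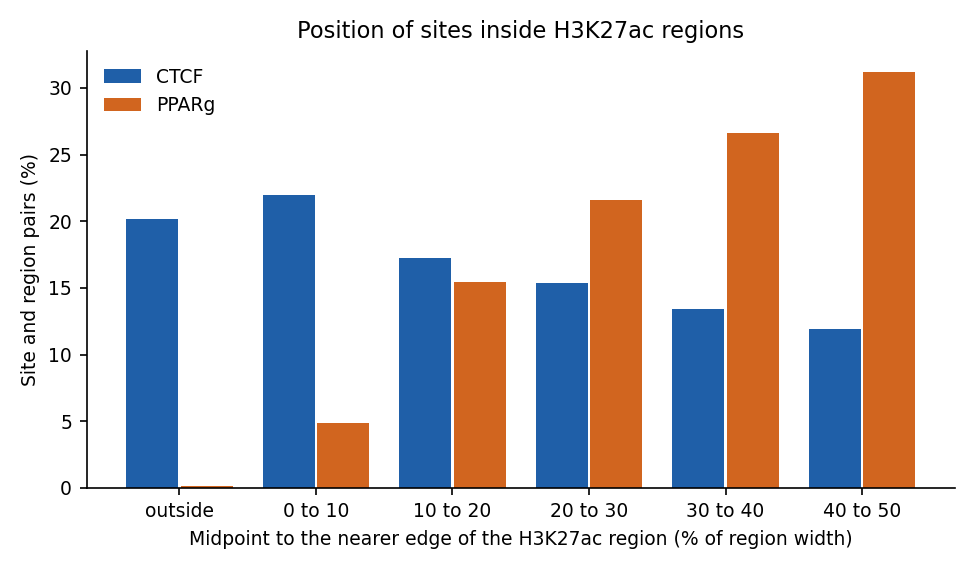
Position of site midpoints in H3K27ac regions, as distance to the nearer edge in % of region width (x axis), with the share of site and region pairs on the y axis (%), for 3985 CTCF pairs (blue) and 10364 PPARg pairs (orange). CTCF is most frequent at the edge, with 20.2% outside and 22.0% in the outermost bin, and PPARg in the middle, with 31.2% in the innermost bin and 0.164% outside.

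How often an acetylated region held each factor varied with its width. In the narrowest class, with a median width of 1221 bp, 11.1% of regions held a CTCF site and 11.9% a PPARg site. In the widest class, with a median of 7362 bp, the shares were 23.4% for CTCF and 60.9% for PPARg. Per Mb of acetylated DNA, CTCF fell with width, with 95.4 sites in the narrowest and 29.8 in the widest class. PPARg had 102 sites in the narrowest class, 84.7 in the next and 121 in the widest. These counts include sites that only touched an edge, since an overlap of 1 bp was enough. In the narrowest class 36.6% of CTCF pairs and 1.13% of PPARg pairs had the site midpoint outside the region. For the widest class this was 12.2% and 0.0175%. Over all peaks of each library, 12.4% and 11.5% of the narrowest regions held CTCF in WT164 and WT165, against 16.3% and 15.5% with PPARg in WT 2 and WT 4. Counted by an overlap of 1 bp, the shares of the factors were thus close in the narrowest regions for sites of both libraries. The single libraries of PPARg lay above those of CTCF there, and the factors lay far apart in the widest regions. Shares of regions counted by site midpoint were not computed.

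**Figure D4:**
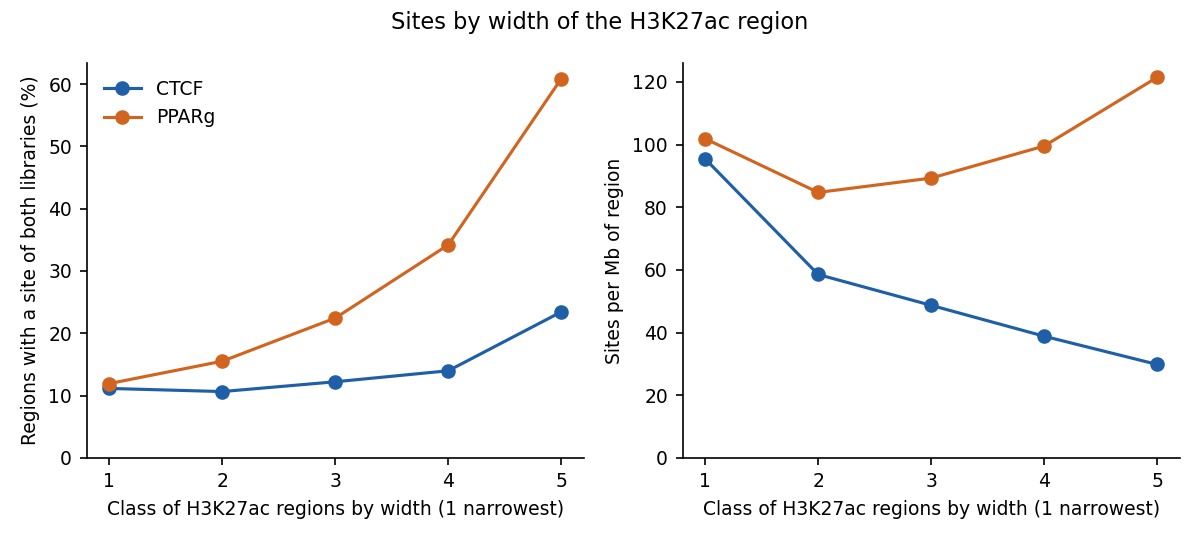
H3K27ac regions in 5 classes of width (x axis, 1 narrowest), with the share of regions that held a site on the left (%) and sites per Mb of region on the right, for CTCF (blue) and PPARg (orange). For sites of both libraries, which are drawn here, the shares are 11.1% for CTCF and 11.9% for PPARg in the narrowest class and 23.4% for CTCF and 60.9% for PPARg in the widest. A site that overlapped a region by 1 bp was counted in it.

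Position relative to genes differed less than the marks did. Within 1 kb of a gene end, that is of either end of a protein-coding gene span, lay 11.3% (10.9 to 11.8%) of CTCF sites and 12.4% (11.9 to 13.1%) of PPARg sites, and 11.2% and 11.3% of the peaks of the CTCF libraries against 13.5% and 13.7% of those of the PPARg libraries. The median distance to the nearest gene end was 11417 bp for CTCF and 13078 bp for PPARg, with 11653 and 11574 bp in the CTCF libraries against 12799 and 12151 bp in the PPARg libraries. Each pair of libraries stood apart from the other (exact permutation p = 0.333), but these small differences depended on the setting. Among peaks with a −log10 q of at least 10 in all lists, 12.2% of CTCF and 10.8% of PPARg sites lay within 1 kb of a gene end. Without that cutoff, 32.2% of CTCF and 30.8% of PPARg sites lay within 5 kb of one.

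Start sites gave another picture than gene ends. Within 1 kb of a transcription start site lay 8.65% (8.29 to 9.03%) of CTCF sites and 12.6% (12 to 13.2%) of PPARg sites. Over all peaks the shares were 8.48% and 8.62% in the CTCF libraries, against 13.6% in each PPARg library. The median distance to a start site was 16381 bp for CTCF and 13848 bp for PPARg. By median distance CTCF thus lay nearer to gene ends of either kind and PPARg nearer to start sites. Within 1 kb of a gene end, however, PPARg had the larger share. The start sites were those of the promoter windows, which cover 17462 genes, and the gene ends those of 21887 protein-coding genes. Between genes, outside gene spans and over 1 kb from their ends, lay 44.5% (43.9 to 45.2%) of CTCF sites and 38.2% (37.4 to 39.1%) of PPARg sites, with 44.4% and 44.5% in the CTCF libraries against 36.8% and 37.1% in the PPARg libraries (exact permutation p = 0.333). Inside genes lay 44.1% of CTCF sites and 49.3% of PPARg sites.

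CTCF sites with H3K4me3 were mostly at promoters, and PPARg sites with H3K4me3 less so. Of 2101 CTCF sites with the mark 57.8% lay within 1 kb of a start site and 23.3% over 5 kb away. Of 2715 PPARg sites with the mark 42.9% lay within 1 kb and 31.9% over 5 kb away. By library the shares within 1 kb were 58.6% and 58.9% for CTCF, against 45.9% and 46.2% for PPARg. Among sites with neither mark, 48.5% of 17932 CTCF sites and 54.7% of 1314 PPARg sites lay between genes, and their median folds were 10.5 and 9.44 in the CTCF libraries against 7.44 and 5.88 in the PPARg libraries.

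CTCF sites were wider as called, with a median of 776 bp against 611 bp for PPARg. The single libraries had medians of 612 bp in WT164 and 523 bp in WT165, against 471 bp in PPARg WT 2 and 345 bp in WT 4 (exact permutation p = 0.333). In the 3 tagmentation libraries alone, the medians over peaks were thus 612 and 523 bp for CTCF against 471 bp for PPARg. With the peaks of WT165 alone as the CTCF sites, the difference from the merged PPARg sites was -88 bp, and with those of WT164 alone 1 bp. With a −log10 q of at least 10 in all lists the medians were 929 bp for CTCF and 877 bp for PPARg, a difference of 52 bp, and the libraries of the factors no longer stood apart (exact permutation p = 0.667). The called width varied with the strength of a peak: it was 438 bp in the weakest and 1220 bp in the strongest class of CTCF sites, and 386 bp and 1132 bp in those of PPARg.

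PPARg sites lay closer together although there were fewer of them. Another site of the same factor lay within 10 kb of 36.9% (36.3 to 37.5%) of CTCF sites and of 54.2% (53.3 to 55.1%) of PPARg sites. By library the shares were 45.3% in WT164 and 41.2% in WT165, against 59.9% in PPARg WT 2 and 64.4% in WT 4, without overlap (exact permutation p = 0.333). The median gap to the nearest site was 16943 bp for CTCF and 7753 bp for PPARg. With the number of sites set equal, by keeping the strongest 11703 of CTCF, the shares were 26.0% for CTCF and 54.2% for PPARg. With a −log10 q of at least 10 in all lists they were 28% for CTCF and 33.6% for PPARg, a difference of -5.55 percentage points against -17.3 with all sites. Within 50 kb the factors came near each other, with 78.2% for CTCF and 79.7% for PPARg.

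Groups of sites were then formed by joining neighbours within 10 kb. Groups of 3 or more held 12.7% of CTCF sites and 31.1% of PPARg sites. CTCF had 59 groups of 5 or more sites and PPARg had 204. The largest CTCF groups had 7 sites. They lay at Fam222a and Trpv4 on chromosome 5, at Adap1, Cox19 and Cyp2w1 on chromosome 5, at Ncl and Nmur1 on chromosome 1, and at Gucy2e and Cntrob on chromosome 11. In 3 of these 4 groups no site overlapped H3K27ac, and in the group at Adap1 4 of 7 did.

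The largest PPARg group, near Alkbh8 on chromosome 9, had 18 sites. It lay in the first 3.1 Mb of that chromosome, where 15 sites had the high −log10 q at low fold described below. A group of 15 sites lay at Cyb5a, which encodes cytochrome b5, and Fbxo15 on chromosome 18. A group of 11 sites had Tomm40, Apoe, Apoc1, Apoc4, Apoc2 and Gm44805 as nearest genes on chromosome 7, and this cluster of apolipoprotein genes includes the Apoc2 promoter printed above. Groups of 10 sites lay at Nat8 and Nat8f2 on chromosome 6 and at Gpam, which encodes a mitochondrial acyltransferase that starts triglyceride synthesis, on chromosome 19. A group of 9 lay at Por, the electron donor of the cytochromes P450, on chromosome 5. All sites of these last 5 groups overlapped H3K27ac.

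The strongest sites of each factor were taken by the mean percentile of −log10 q. For CTCF the leading site lay 2258 bp from Nemp1, a nuclear envelope protein gene, with folds of 51.7 in WT164 and 60.4 in WT165. Next came sites at Ctif, with folds of 41.7 and 41.3, and at the Nipsnap2 promoter. The other leading CTCF sites were nearest to Kdm3b, Lrsam1, Dnah17, Nemf, Rapgef1, Rbm19 and Sec22c. Of these 10 sites 4 overlapped H3K27ac.

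The leading PPARg site lay 3691 bp from Polr3gl, which encodes a subunit of RNA polymerase III, with folds of 87.1 in WT 2 and 48.2 in WT 4. The site nearest to Rxra, the gene of the main RXR partner in liver, lay 50588 bp from the gene's end and had folds of 71.8 and 49.4. Other leading sites were nearest to Cpne5, Palb2, Abcd3, Hjurp and Rhou. Abcd3 encodes a peroxisomal transporter of fatty acyl-CoA. The 10 also held sites near Lrrc4c, with folds of 6.08 and 4.68, and near Alkbh8, with folds of 8.53 and 6.42. These were among 29 PPARg sites and 1 CTCF site whose −log10 q was over 10 times the fold, and 15 of the 29 lay in the first 3.1 Mb of chromosome 9. By their names, blacklisted regions were removed from the CTCF lists and not from the PPARg lists, and the part of this in the 29 sites was not tested. Without such peaks, Hsd17b4 and Ehhadh, which encode enzymes of peroxisomal fatty acid oxidation, entered the 10, with folds of 82.4 and 37.7 and of 69.6 and 42.4.

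The genes that carried each factor were counted with a window of 5 kb around the gene span. Of 21887 protein-coding genes 10215 (46.7%) carried a CTCF site and 4674 (21.4%) a PPARg site. By library the shares were 51% and 48.4% for CTCF, against 25.5% and 25.8% for PPARg (exact permutation p = 0.333). Both factors were carried by 3218 genes (14.7%), CTCF alone by 6997 (32%), PPARg alone by 1456 (6.65%) and neither by 10216 (46.7%). Genes with both were long, with a median span of 40.2 kb, against 24.3 kb for CTCF alone, 19.4 kb for PPARg alone and 9.36 kb for neither.

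Acetylation separated the genes of PPARg far more than those of CTCF. Of the 12712 genes with an H3K27ac region, 60.8% carried CTCF and 35.7% carried PPARg. Of the 9175 genes without one, 27.1% carried CTCF and 1.43% carried PPARg. The most CTCF sites were found at the long genes Nav2 (17 CTCF and 10 PPARg sites), Gse1 (16 and 12), Pde4d (16 and 7) and Camta1 (14 and 0). The most PPARg sites were found at Vps13d (4 CTCF and 17 PPARg sites), Thrb (4 and 16), which encodes the thyroid hormone receptor of liver, Arhgap26 (11 and 15), Iqgap2 (4 and 15), Itpr1 (4 and 14) and Rora (10 and 14).

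Genes of lipid metabolism carried PPARg almost throughout. In fatty acid oxidation and ketogenesis, 20 of 32 genes carried CTCF and 32 of 32 carried PPARg, against the 46.7% and 21.4% of all genes. All 32 had an H3K27ac region, and among genes with one the PPARg share was 35.7%. At Ehhadh the highest CTCF folds were 6.49 in WT164 and 5.58 in WT165, against highest PPARg folds of 69.6 in WT 2 and 42.4 in WT 4. At Cpt1a, which controls entry of fatty acids into mitochondria, they were 13.7 and 11.2 for CTCF, against 24.4 and 22.4 for PPARg. PPARg thus had the higher fold at both genes, with the limit that folds come from separately made libraries.

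Most genes of lipid storage and synthesis also carried PPARg, with exceptions. In lipid droplet and fatty acid uptake 21 of 27 genes (77.8%) carried CTCF and 22 (81.5%) carried PPARg. In fatty acid and triglyceride synthesis 15 of 22 (68.2%) carried CTCF and 20 (90.9%) carried PPARg. Over all genes the shares were 46.7% and 21.4%, and over genes with an H3K27ac region 60.8% and 35.7%. Such a region was found at 25 of the 27 genes and at all 22. Cd36, the fatty acid translocase, had 1 CTCF site and 3 PPARg sites, with highest PPARg folds of 20.2 and 12.4. Cidec, a coat protein of lipid droplets, had 1 CTCF site and 3 PPARg sites. Fabp1 had no CTCF site and 2 PPARg sites. Acaca, acetyl-CoA carboxylase, had 7 CTCF sites and 3 PPARg sites, and Fasn, fatty acid synthase, had neither.

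Other liver functions were read against the shares of all genes, 46.7% for CTCF and 21.4% for PPARg. Genes with an H3K27ac region had shares of 60.8% and 35.7%. Such a region was found at 24 of 24 plasma protein genes and 19 of 19 glucose and glycogen genes. It was found at 22 of 23 bile acid and cholesterol genes and 22 of 22 xenobiotic metabolism genes. Of the plasma protein genes 15 of 24 (62.5%) carried CTCF and 24 (100%) carried PPARg. Fga, the fibrinogen alpha chain, had no CTCF site and 3 PPARg sites with highest folds of 34.5 and 22.4. Of the glucose and glycogen genes 10 of 19 (52.6%) carried CTCF and 17 (89.5%) carried PPARg. Pck1, which controls gluconeogenesis, had 1 CTCF site with folds of 8.55 and 6.36 and 3 PPARg sites with highest folds of 42.0 and 27.7. Of the bile acid and cholesterol genes 10 of 23 (43.5%) carried CTCF and 19 (82.6%) carried PPARg. Cyp7a1, which catalyses the slowest step from cholesterol to bile acids, had no CTCF site and 2 PPARg sites. Of the xenobiotic metabolism genes 11 of 22 (50%) carried CTCF and 16 (72.7%) carried PPARg, with Cyp2b10 an exception that had 3 CTCF sites and no PPARg site.

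Regulators of the liver mostly carried both factors, against 14.7% of all genes. Of all genes with both, 97.9% had an H3K27ac region, and the share with both over genes with such a region was not computed. Of the hepatocyte transcription factors 15 of 18 carried CTCF, 17 carried PPARg and 14 carried both. For the circadian clock genes these counts were 14, 17 and 13 of 18. For the PPAR receptors, RXR partners and coregulators they were 14, 14 and 13 of 17. For other liver nuclear receptors they were 13, 12 and 9 of 16. Over all genes 46.7% carried CTCF and 21.4% PPARg, and over genes with an H3K27ac region 60.8% and 35.7%. The PPAR list, all 17 with an H3K27ac region, had a median span of 86.9 kb. In the longest of 5 classes of gene length, 78.3% of genes with such a region carried CTCF and 49.4% PPARg. Ppara had 2 CTCF sites with highest folds of 6.84 and 8.07 and 10 PPARg sites with highest folds of 35.7 and 25.9. Per2, a core clock repressor, had 1 CTCF site and 7 PPARg sites. Hnf4a, a master regulator of hepatocyte identity, had 1 CTCF site with folds of 19.7 and 17.5 and 6 PPARg sites with highest folds of 16.5 and 17.6.

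Other gene families were read against the same shares of all genes, 46.7% for CTCF and 21.4% for PPARg, and against those of genes with an H3K27ac region, 60.8% and 35.7%. Of the cytosolic ribosomal protein genes 19 of 30 (63.3%) carried CTCF and 3 (10%) carried PPARg, and all 30 had an H3K27ac region. Of the mitochondrial respiratory chain genes 14 of 25 (56%) carried CTCF and 4 (16%) carried PPARg, and all 25 had an H3K27ac region. In these families the CTCF shares were near that of acetylated genes and the PPARg shares below it. Ndufs1, a subunit of complex I, had 1 CTCF site, with highest folds of 30.8 and 30.7 near the gene, and 1 PPARg site, with highest folds of 5.84 and 3.88. Cohesin and architectural protein genes carried CTCF in 14 of 20 (70%) and PPARg in 5 (25%). Neuronal synapse genes, of which 10 of 24 had an H3K27ac region, carried CTCF in 17 (70.8%) and PPARg in 6 (25%). They were long, with a median span of 96.0 kb, and in the longest of 5 classes of gene length 72.2% of genes carried CTCF and 36.0% carried PPARg.

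The Hox clusters carried CTCF at 23 of 39 genes (59.0%, against 46.7% of all genes), over 14 distinct sites, and PPARg at none. An H3K27ac region was found at 11 of these 39 genes and at 21 of the 57 clustered protocadherins. Of all genes without such a region 1.43% carried PPARg, and of all genes 21.4%. The clustered protocadherins carried CTCF at 24 of 57 genes (42.1%, below the share of all genes), over 10 distinct sites, and PPARg at none. All 21 matched Pcdhg genes, whose spans overlap, carried CTCF, with up to 8 sites at a gene, against 3 of 22 Pcdhb genes and 0 of 14 Pcdha genes. Imprinted genes carried CTCF in 21 of 32 and PPARg in 5. Among genes long studied for CTCF, 9 of 15 carried CTCF and 7 carried PPARg. H2-K1, a classical MHC class I gene, had 2 CTCF sites with highest folds of 24.9 and 19 and no PPARg site. Myc had 1 site of each factor.

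Markers of the liver's cell types were counted in the same way, with lists of 8 genes too short to set apart from the 46.7% for CTCF and 21.4% for PPARg of all genes. Of 8 genes each, hepatocyte markers carried CTCF in 3 and PPARg in 7, Kupffer cell markers 0 and 1, stellate cell markers 4 and 0, endothelial markers 3 and 2, cholangiocyte markers 2 and 0, lymphocyte markers 3 and 1, and neural stem cell markers 3 and 0. Apoa1, the main protein of HDL, had no CTCF site and 6 PPARg sites. Pdgfrb, a receptor of stellate cells, had 2 CTCF sites and no PPARg site.

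**Figure D5:**
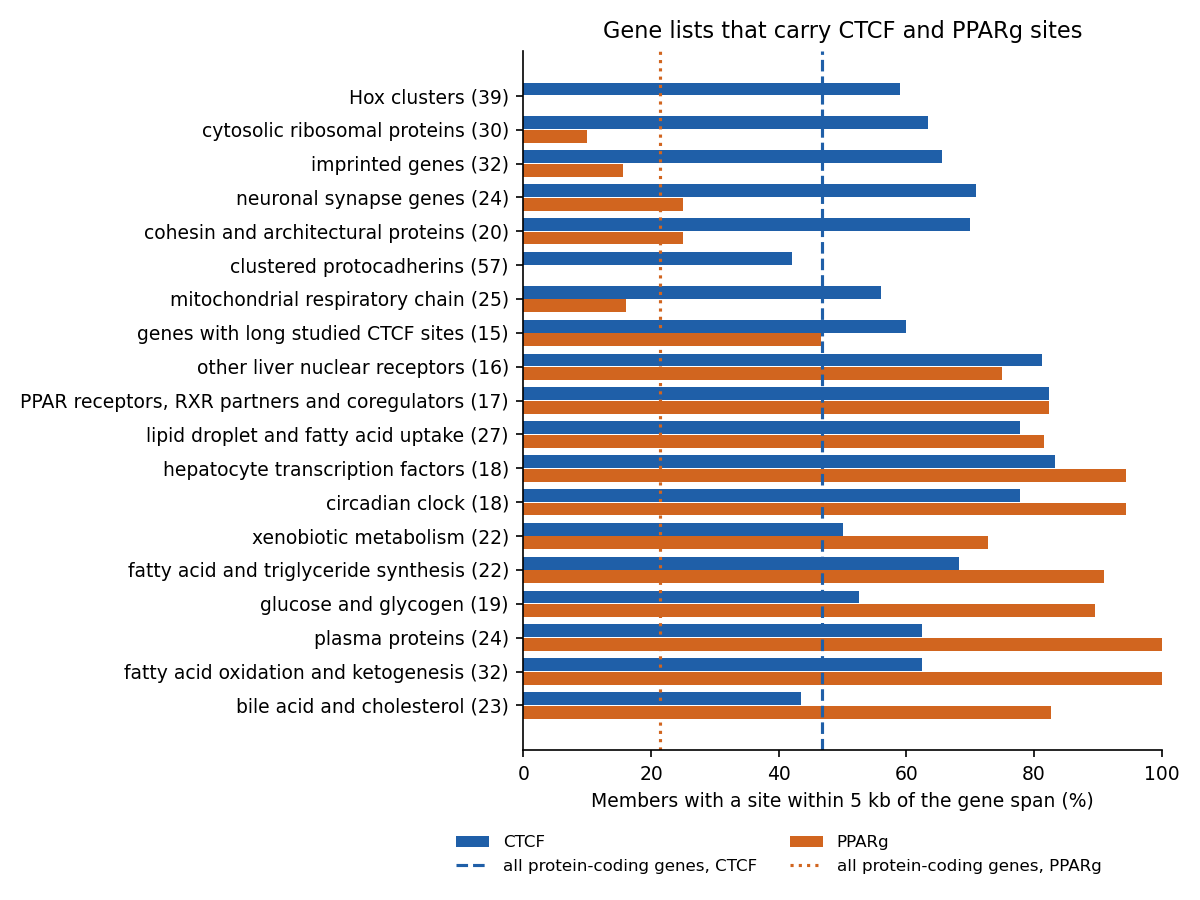
Share of genes with a site within 5 kb (x axis, %) in each list, with the number of genes in brackets, for CTCF (blue) and PPARg (orange); vertical lines are the shares over all protein-coding genes, 46.7% for CTCF and 21.4% for PPARg. Every gene of fatty acid oxidation and of the plasma protein list carried PPARg, and no Hox or protocadherin gene did. An H3K27ac region was found at every gene of the first 2 lists, but at 11 of 39 Hox and 21 of 57 protocadherin genes.

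Places where a CTCF site overlapped a PPARg site were then counted. A total of 605 CTCF sites (2.73%) overlapped 605 PPARg sites (5.17%). Of the 2691 Mb between the outermost genes of the chromosomes, CTCF sites covered 19.3 Mb and PPARg sites 8.45 Mb. The overlap that such coverage alone would give was not computed, so these shares are not called low or high against it. At the overlapping CTCF sites 86.1% had H3K27ac and 34.4% had H3K4me3, against 16.0% and 8.79% at the other CTCF sites. The highest ranked of these pairs were nearest to Lpcat3, Ell2, Fitm2, Smarcd1 and Ebf2. Lpcat3 encodes an enzyme that puts polyunsaturated fatty acids into phospholipids, and its pair had CTCF folds of 24.0 and 20.3 and PPARg folds of 22.3 and 18.8. Fitm2, a gene of lipid droplet formation, had CTCF folds of 18.9 and 21.2 and PPARg folds of 24.4 and 17.1. The mean summits of overlapping sites lay a median of 265 bp apart, and 19.6% of pairs had them within 100 bp. Over all sites the median distance was 64.2 kb from a CTCF site to the nearest PPARg site and 19 kb from a PPARg site to the nearest CTCF site.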

How the data were processed

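The files were peak lists, 1 per library. Per the submitters' processing notes, MACS2 2.1.2, BWA 0.7.12, deepTools 3.1.3 and Picard 1.77 were used with build mm10; the control for peak calling is not given in the sources used here. Peak values are those deposited by the authors: the fold enrichment, a ratio, and the p and q, both as −log10. Per the names of the deposited lists, CTCF peaks had blacklisted regions removed and PPARg peaks had not. The lowest −log10 q was 3.01 in both CTCF lists, 3.00 in PPARg WT 2 and 1.31 in PPARg WT 4. Read depth is unknown. Peaks overlapping by at least 1 bp in both libraries were merged to sites with Python 3.11.15, pandas 2.3.3 and numpy 2.4.6, and H3K27ac regions needed a peak in all 3 libraries. Genes and promoters were those of RefSeq on GRCm38.p6, and 536 of 537 list entries matched by symbol. Libraries were compared with a 2-sided exact permutation test (scipy 1.17.1), and list counts got no test. Measuring steps were tested on simulated data. The factors, gene lists and measures were chosen with earlier results of these data known. Named genes were those nearest the 10 strongest sites, with the most sites, at the largest groups and strongest pairs, and the first 4 of each list; others named (Myc and those of the protocadherin families) were chosen after their values were seen. Some named genes are not reported here. Knockout libraries were not used.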

Additional observations from a re-analysis of the deposited data

How the results depend on the processing

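The 10 comparisons and the counts of sites were recomputed under 20 alternatives, which gave 135 values, of which 128 kept the direction of the difference or stayed within 1.5 times the count. With a −log10 q of at least 10 in all lists the counts were 13869 CTCF and 3925 PPARg sites, and with all lists cut to 15520 peaks there were 13354 CTCF sites. CTCF minus PPARg, the share within 1 kb of a gene end was -1.10 percentage points and became 1.38 with a −log10 q of at least 10 and 1.42 within 5 kb of a gene end. The median distance to a gene end was -1661 bp, and 2533.5 bp when measured to start sites, an alternative added after seeing the data. The difference in median width became -88 bp without CTCF WT164; leaving out 1 library in turn it ranged from -88 to 431 bp (1 bp without CTCF WT165, 431 bp without PPARg WT 2 and 305 bp without PPARg WT 4), since a single library's peaks are narrower than merged sites. The cause of the other reversals was not tested. Without PPARg WT 2 the share within 1 kb of a gene end differed by -2.39 percentage points, the distance to a gene end by -734 bp and the share with a neighbour by -27.5 points; without PPARg WT 4 the share at gene ends differed by -2.15 points, and without CTCF WT165 the share with a neighbour by -8.82 points. Over all alternatives the H3K27ac difference ranged from -74.6 to -68.1 percentage points, H3K4me3 from -14.2 to -13.0, neither mark from 67.3 to 73.5, between genes from 4.05 to 7.67, neighbours from -28.2 to -1.52, genes from 13.2 to 29.7 and the distance inside H3K27ac edges from -1476 to -1031 bp. No paired analysis was possible because the CTCF and PPARg libraries share no replicate numbers. PPARg shares WT 2 with H3K27ac and H3K4me3 and WT 4 with H3K27ac, while CTCF shares no number with a mark. The labels do not say whether a shared number means the same animal, and its part in the overlaps with marks was not tested. The lists hold no read counts, so a site called in 1 library and not in another may only have missed the threshold.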

Other observations

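The X chromosome held few sites of either factor, and fewer of PPARg. CTCF had 2.71 sites per Mb on X, against 6.86 to 13.8 on the 19 autosomes, and PPARg had 0.492, against 3.57 to 8.42. Relative to the autosome median these are ratios of 0.30 for CTCF and 0.102 for PPARg. By library the ratios were 0.326 in CTCF WT164 and 0.307 in WT165, and 0.110 in PPARg WT 2 and 0.109 in WT 4. H3K27ac regions on X, at 2.23 per Mb, stood at a ratio of 0.208. Within H3K27ac regions, 8.14% of the 381 on X and 14.4% of those on autosomes held a CTCF site, and 13.6% on X and 29.2% on autosomes a PPARg site. CTCF WT164, CTCF WT165 and PPARg WT 2 came from males, which have 1 X chromosome, and the labels give no sex for the other libraries; the part of copy number in these values was not tested.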
